A study of Saccharomyces cerevisiae with 8 samples.

Results

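The genes of the general amino acid control pathway of the yeast Saccharomyces cerevisiae that were followed across all arrays of the series are GCN1, GCN2, GCN20 and YIH1, whose products set the activity of the protein kinase Gcn2, and GCN4 and PCL5, which code for the pathway's transcription activator and for a regulator of that activator's breakdown. The rule that picks them is a list of names and holds no signal value, but it was written with earlier results of these arrays known. All 6 were found, among 5449 yeast genes on the array, each with 1 probe set, and all 6 were among the 5439 genes that passed the filter on dim signals.

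The study asked what happens to yeast cells that lack the ribosomal protein Rpl12, which sits at the base of the stalk of the large subunit and is encoded by RPL12A and RPL12B, a pair of genes for the same protein. There were 4 groups of 2 arrays: plus RPL12A and plus RPL12B, in which strain 6EA1 held RPL12A or RPL12B on a plasmid of high copy number, the double deletion, which is 6EA1 itself and lacks both genes, and the wild type, strain W303, whose background 6EA1 shares. The arrays of a group were titled biological replicates. Every culture was kept at 30 °C until early log phase, an A600 of 0.5 to 0.6, in yeast nitrogen base without amino acids, 2% glucose and the nutrients the strain requires at 40 mg per liter. Cells with an empty plasmid were not analysed here, so a plasmid's own effect and that of the gene it carries cannot be told apart.

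In this pathway, Gcn2 senses uncharged transfer RNA with the help of the ribosome-bound proteins Gcn1 and Gcn20, and phosphorylates the initiation factor eIF2. Phosphorylated eIF2 inhibits its exchange factor eIF2B, which lowers general translation but lets ribosomes reach the GCN4 coding region past short upstream reading frames. Gcn4 protein then raises the transcription of genes for amino acid synthesis, and of PCL5, whose product with the kinase Pho85 marks Gcn4 for destruction. Yih1 competes with Gcn2 for Gcn1. Because much of this control acts on translation and on protein stability, mRNA arrays see only part of it: neither eIF2 phosphorylation nor Gcn4 protein was measured.

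Signals are the authors' MAS5 intensities, on a linear scale on which each array's trimmed mean is about 500. The group labels held: RPL12A gave 8.18 and 15.5 with plus RPL12B and 28.8 and 6.88 in the double deletion, against 5269 to 6079 on the 4 arrays that carry the gene, and RPL12B gave 1.71 to 48.5 where it was deleted and 5469 to 7040 elsewhere. Every member lay at least 64.5 times above the background of the array, which was 7.42 to 8.72. Both arrays of a group correlated across genes, which are not independent replicates, at r = 0.959 to 0.989 on the log2 scale. The signal of a 25S ribosomal RNA control probe set split the arrays: it was 277, 312 and 148 on replicate 2 of plus RPL12A, of plus RPL12B and of the wild type, and between 2476 and 5720 on the other 5 arrays, both double deletion arrays among them. Differences are log2, first group minus second, with the SE of limma, whose adjusted p values are 2-sided, Benjamini-Hochberg adjusted over 5439 genes and read at a threshold of 0.05; an exact test of 2 against 2 arrays cannot go below p = 0.333. Nothing says that the arrays of a group came from separate transformants, so p values measure the spread between these arrays. More RNA per cell and a larger share of all RNA cannot be told apart on arrays scaled to a common mean.

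Of the 6 members, GCN20 alone was called in the fit of deposited values with group as its one term: it rose in double deletion versus wild type cells. GCN1 and GCN4 differed by at most 0.19 on that scale in any comparison, GCN2 and YIH1 by at most 0.29 without a call, and PCL5 had its lowest 2 signals in the double deletion without passing the adjusted threshold. The plot of signals by array shows this for each gene.

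**Figure D1:**
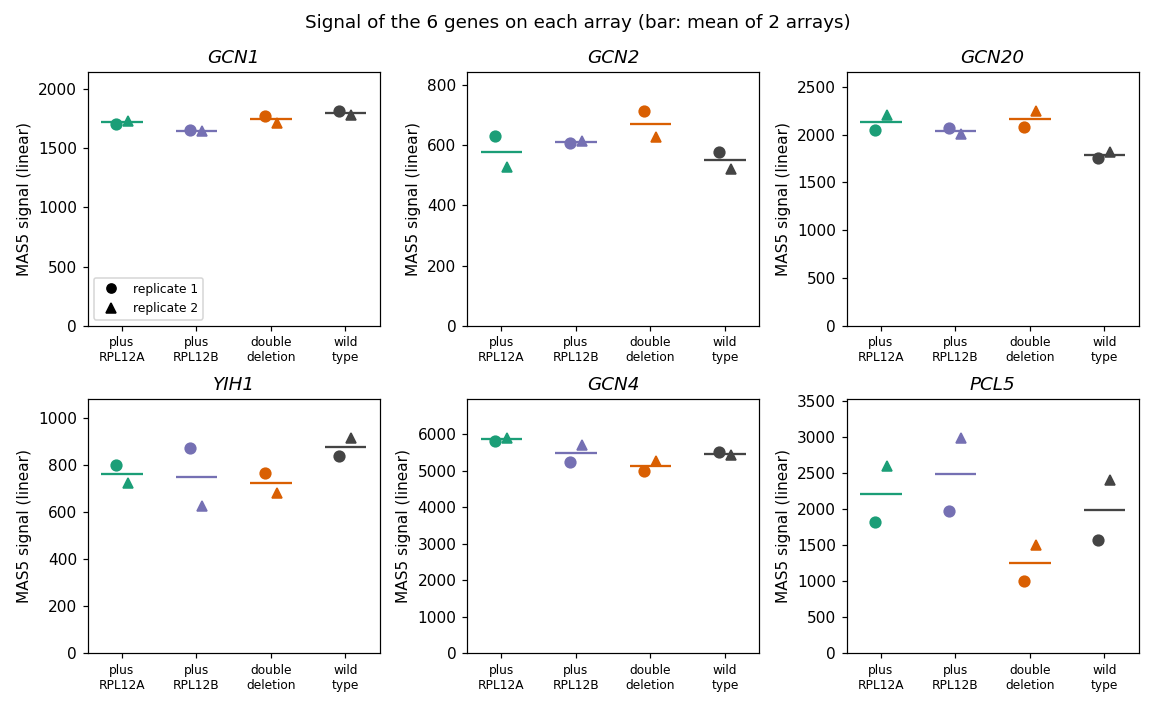
MAS5 signal (linear scale, axes from 0) of the 6 genes on each of the 8 arrays, with circles for replicate 1, triangles for replicate 2 and a bar for the mean of the 2 arrays. GCN20 lies lower in the wild type than in the other 3 groups, and PCL5 is higher on replicate 2 in all 4 groups and lowest in the double deletion.

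GCN2 (YDR283C) codes for the eIF2 kinase itself. Its signal was 630 and 527 with plus RPL12A, 609 and 615 with plus RPL12B, 715 and 628 in the double deletion, and 578 and 523 in the wild type. The double deletion and the wild type did not overlap, while plus RPL12A overlapped both. The group means were 578 ± 73.0 with plus RPL12A, 612 ± 3.79 with plus RPL12B, 672 ± 61.7 in the double deletion and 550 ± 39.4 in the wild type (SD, n = 2 each), and the order from the top was double deletion, plus RPL12B, plus RPL12A and wild type. No pair of neighbours in that order was called different. The log2 difference between the double deletion and the wild type was 0.29 (SE 0.14, 95% interval -0.04 to 0.61, limma adjusted p = 0.153), and 0.68 with arrays centred on hybridisation controls (adjusted p = 0.0127). The plasmid groups differed from the double deletion by -0.22 with plus RPL12A and -0.13 with plus RPL12B, and from the wild type by 0.07 and 0.15, all with adjusted p values of at least 0.439.

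GCN1 (YGL195W) codes for the large ribosome-bound protein that Gcn2 needs for its activation. It had the narrowest spread, with signals of 1706 and 1730.4 with plus RPL12A, 1653 and 1638 with plus RPL12B, 1771 and 1711 in the double deletion, and 1815 and 1780.4 in the wild type. The order of the group means from the top was wild type, double deletion, plus RPL12A and plus RPL12B, and double deletion and plus RPL12A overlapped. The log2 difference between the double deletion and the wild type was -0.05 (SE 0.08, 95% interval -0.23 to 0.13, limma adjusted p = 0.665). With arrays centred on hybridisation controls it was 0.35 (adjusted p = 0.0293), on a scale where the median of all genes was 0.54. The wild type exceeded plus RPL12B on every array, by a difference of -0.13 for plus RPL12B minus wild type, which was not called.

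GCN20 (YFR009W) codes for the ATP-binding cassette protein that works in a complex with Gcn1. Its signal was 2048 and 2209 with plus RPL12A, 2071 and 2006 with plus RPL12B, 2078 and 2251 in the double deletion, and 1756 and 1816 in the wild type. Every array of 6EA1, with or without a plasmid, was above both wild type arrays, and plus RPL12A overlapped both other groups of 6EA1, which were next to each other without overlap. Means were 2128 ± 114 with plus RPL12A, 2039 ± 45.9 with plus RPL12B, 2165 ± 122 in the double deletion and 1786 ± 42.1 in the wild type (SD, n = 2 each).

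GCN20 rose by 0.28 in double deletion versus wild type on the log2 scale (SE 0.08, 95% interval 0.08 to 0.47, limma adjusted p = 0.0417). The call is near its threshold: the adjusted p was above 0.05 without any one of 6 arrays, at 0.0586 and 0.0592 without plus RPL12A replicate 1 or 2, 0.171 and 0.135 without wild type replicate 1 or 2, and 0.095 and 0.167 with double deletion replicate 1 or 2 left out. Among the 5 arrays of high 25S signal the difference was 0.30 (adjusted p = 0.155), and it was 0.30 with the 25S split as a block (adjusted p = 0.0377). The size depends on the scale, at 0.07 with each array centred on its median (adjusted p = 0.554), 0.36 with quantile normalization and 0.67 with arrays centred on hybridisation controls, while the median of all genes moved along, at 0.14 as deposited and -0.06, 0.00 and 0.54 on those scales. The plasmid groups lay near the double deletion in GCN20 and were not called against the wild type: plus RPL12A minus wild type was 0.25 (95% interval 0.06 to 0.45, adjusted p = 0.122), plus RPL12B minus wild type was 0.19 (adjusted p = 0.170), and plus RPL12A and plus RPL12B minus double deletion were -0.02 and -0.09, with 95% intervals of -0.22 to 0.17 and -0.28 to 0.11. These comparisons share arrays.

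YIH1 (YCR059C) codes for the inhibitor that takes Gcn1 away from Gcn2. It gave 799 and 723 with plus RPL12A, 874 and 625 with plus RPL12B, 766 and 683 in the double deletion, and 837 and 916 in the wild type. Both arrays with plus RPL12A and both of the double deletion were below both of the wild type, but the plus RPL12B arrays were the highest and the lowest of 6EA1. The order of the means from the top was wild type (876 ± 55.7), plus RPL12A (761 ± 54.2), plus RPL12B (750 ± 176) and double deletion (724 ± 58.7; SD, n = 2 each), and neighbours below the wild type overlapped. The log2 difference between the double deletion and the wild type was -0.28 (SE 0.17, limma adjusted p = 0.252), opposite in sign to that of GCN20, and it was 0.12 with arrays centred on hybridisation controls. With plus RPL12A and plus RPL12B the differences from the wild type were -0.20 and -0.24 (adjusted p = 0.498 and 0.366), and from the double deletion 0.07 and 0.03.

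GCN4 (YEL009C) codes for the transcription activator at the end of the kinase branch. Its signals were 5814 and 5899 with plus RPL12A, 5246 and 5697 with plus RPL12B, 5000.4 and 5257 in the double deletion, and 5502 and 5417 in the wild type. Both plus RPL12A arrays were above all others and the lower double deletion array was the lowest of the 8, yet the whole set spans a narrow range. Signals were 60.8% to 73.1% of the brightest on the same array, and whether bright probes were compressed was not tested.

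Between the double deletion and the wild type, the GCN4 difference was -0.09 (SE 0.06, 95% interval -0.23 to 0.05, limma adjusted p = 0.271). Its direction was set by the scaling, at -0.29 with median centring (adjusted p = 0.0228), 0.20 with quantile normalization (adjusted p = 0.0179) and 0.30 with hybridisation control centring (adjusted p = 0.00593), so no direction is given for GCN4 mRNA in this comparison. Plus RPL12A minus double deletion was 0.19 (SE 0.06, 95% interval 0.05 to 0.33, limma unadjusted p = 0.0138), which did not pass after adjustment (adjusted p = 0.245). It was above 0 on each of the 4 scales, down to 0.0037 with quantile normalization. Plus RPL12B minus double deletion was 0.09 (adjusted p = 0.653), and against the wild type plus RPL12A differed by 0.10 and plus RPL12B by 0.002 (adjusted p = 0.324 and 0.988). The order of the means from the top was plus RPL12A (5857 ± 60.2), plus RPL12B (5471 ± 319), wild type (5459.5 ± 60.5) and double deletion (5129 ± 181; SD, n = 2 each). Plus RPL12B overlapped both the wild type and the double deletion.

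**Figure D2:**
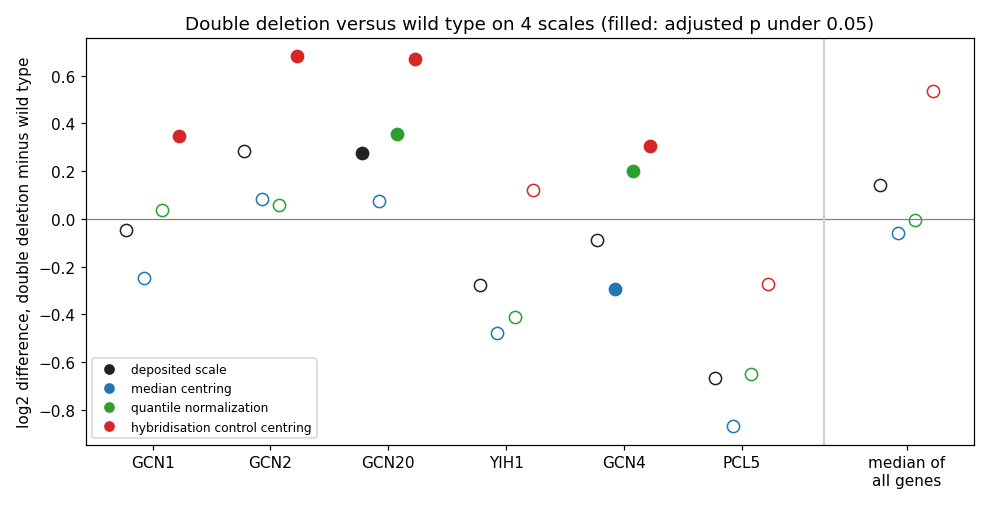
Log2 difference of each member between the double deletion and the wild type on 4 scales, with the median of all 5439 genes at the right; filled points have an adjusted p under 0.05. GCN4 lies between -0.29 and 0.30 depending on the scale, and PCL5 stays below 0 on all 4.

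PCL5 (YHR071W) codes for the Pho85 cyclin that targets Gcn4 for breakdown and is itself a Gcn4 target gene. It varied the most among the members, 3.01-fold between its highest and lowest array. Its signals were 1826 and 2594 with plus RPL12A, 1974 and 2990 with plus RPL12B, 995 and 1503 in the double deletion, and 1567 and 2404 in the wild type. Both double deletion arrays were below all 6 others, and the other 3 groups overlapped. Means were 2210 ± 543 with plus RPL12A, 2482 ± 719 with plus RPL12B, 1249 ± 360 in the double deletion and 1986 ± 592 in the wild type (SD, n = 2 each), in the order plus RPL12B, plus RPL12A, wild type and double deletion from the top.

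The PCL5 difference was -0.67 between the double deletion and the wild type (SE 0.31, 95% interval -1.40 to 0.07, limma adjusted p = 0.143). Against the double deletion it was 0.83 with plus RPL12A (95% interval 0.09 to 1.57, unadjusted p = 0.0322, adjusted p = 0.288) and 0.99 with plus RPL12B (95% interval 0.25 to 1.73, unadjusted p = 0.0155, adjusted p = 0.642). Those intervals do not hold 0, but the unadjusted p values do not pass over all genes. Between arrays of the same replicate number, double deletion minus wild type was -0.66 and -0.68. Plus RPL12A minus double deletion was 0.88 and 0.79, and plus RPL12B minus double deletion was 0.99 and 0.99. The SE above takes in the spread between replicate numbers, and the fit with that number as a block is given in the closing section. Against the wild type the plasmid groups differed by 0.17 with plus RPL12A and 0.32 with plus RPL12B, with intervals of -0.57 to 0.90 and -0.41 to 1.06. The 3 differences that involve the double deletion kept their sign on all 4 scales, from -0.87 to -0.27 for the double deletion minus the wild type, 0.68 to 0.96 for plus RPL12A and 0.83 to 1.08 for plus RPL12B minus the double deletion.

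Within each group PCL5 was higher on replicate 2, by 0.51 with plus RPL12A, 0.60 with plus RPL12B, 0.60 in the double deletion and 0.62 in the wild type on the log2 scale. Of the 5439 genes, 733 (13.5%) were higher on replicate 2 in all 4 groups and 1012 lower in all 4, together 32.1%. By at least the smallest of the PCL5 differences in each group, 16 were higher, PCL5 among them. The 3 highest PCL5 signals came from the 3 arrays with a low 25S signal. Among the 5 arrays of high 25S signal, PCL5 differed by -0.36 between the double deletion and the wild type. There it differed by 0.58 between plus RPL12A and the double deletion, and by 0.69 between plus RPL12B and the double deletion. Each was smaller than with all 8 arrays, but these 5 hold both double deletion arrays and only replicate 1, the lower in PCL5, of each other group. In the double deletion PCL5 was also higher on replicate 2, with 25S signals of 4319 and 3947 on replicates 1 and 2. With the 25S split as a block these were -0.38, 0.54 and 0.70 (limma adjusted p = 0.148, 0.241 and 0.555). The part of the 25S signal in the PCL5 differences was not tested. When each array was left out in turn, the double deletion minus wild type difference lay between -0.98 and -0.36.

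**Figure D3:**
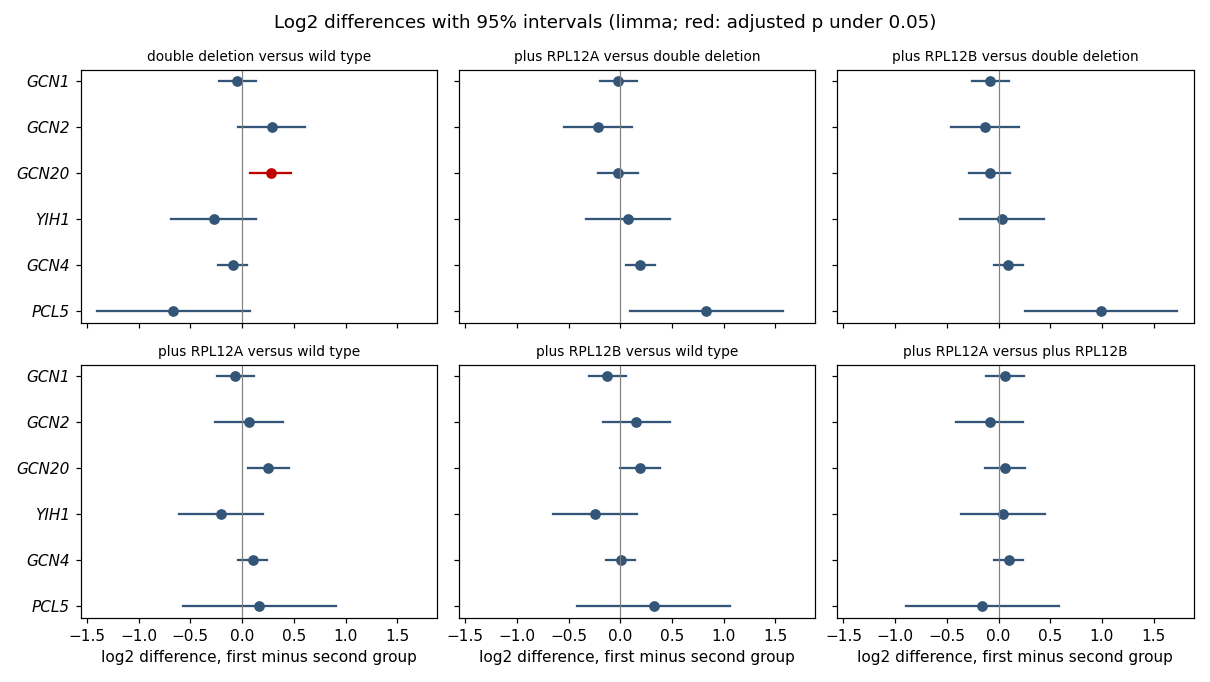
Log2 differences of the 6 members in the 6 comparisons (points, first group minus second) with 95% intervals of limma; the axis is log2, and red marks an adjusted p under 0.05. GCN20 in double deletion versus wild type is red, and the widest intervals are those of PCL5.

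Across all genes, limma called 1109 higher (20.4%) and 661 lower (12.2%) in double deletion versus wild type, and 1 of the 6 members was called. The groups of arrays did not overlap for all 6 members in that comparison, but this held for 75.5% of all genes. Between plus RPL12A and the double deletion 0 members were called (2 at an unadjusted p under 0.05), where 12 genes were called higher (0.221%) and 0 lower (0%), and 2 members did not overlap, against 51.5% of genes. Between plus RPL12B and the double deletion 0 members were called (1 at an unadjusted p under 0.05), with 0.11% of genes higher and 0% lower, and 4 members did not overlap, against 37.9%.

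Between plus RPL12A and the wild type 0 members were called (1 at an unadjusted p under 0.05), with 2.22% of genes higher and 1.75% lower, and 4 members did not overlap, against 58.9%. Between plus RPL12B and the wild type 0 members were called (0 at an unadjusted p under 0.05), with 5.59% of genes higher and 3.9% lower, and 3 did not overlap, against 60.3%. Between plus RPL12A and plus RPL12B 0 members were called (0 at an unadjusted p under 0.05), with 0.0184% of genes higher and 0% lower, and 2 did not overlap, against 20%. The members' shares without overlap lay on both sides of those of all genes. The median difference of the 6 members was -0.07 between the double deletion and the wild type, where that of all genes was 0.14.

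The genes around the members were taken from lists by role: the subunits of eIF2 and eIF2B and eIF5, other regulators of Gcn2, the ribosomal stalk, the machinery of Gcn4 turnover, the other Pho85 cyclins, coactivators of Gcn4, and Gcn4 targets. The strip plot of these lists shows double deletion versus wild type. Of the genes called there in the 6 shorter lists, PHO80, MBF1 and SNF2 were called on all 4 scales and the others on 2 or 3. On the hybridisation control scale 2776 of all 5439 genes were called higher in that comparison, against 1109 on the deposited scale.

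**Figure D4:**
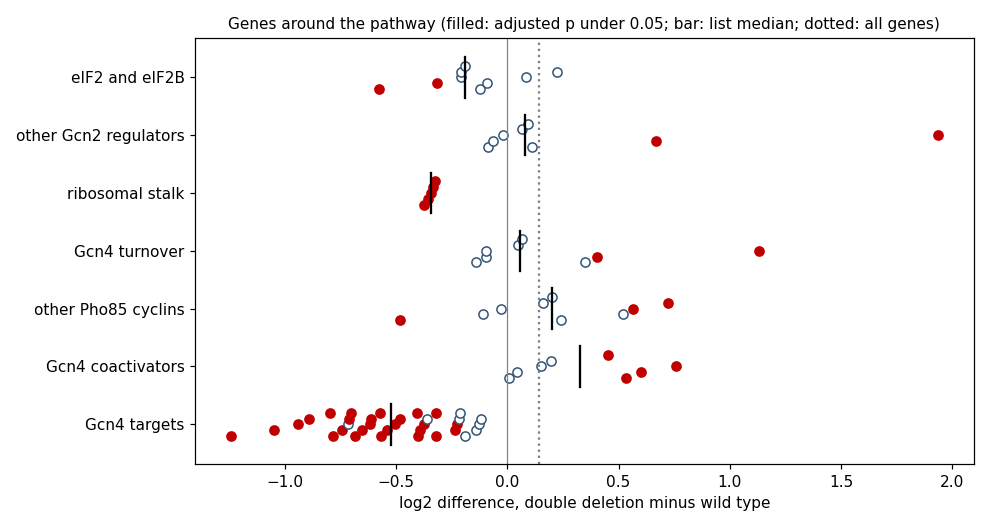
Log2 difference between the double deletion and the wild type for each tested gene of the 7 lists (points, spread vertically for legibility), filled where the adjusted p is under 0.05; the bars are list medians and the dotted line is the median of all genes, 0.14. On this deposited scale the 5 stalk genes and all 34 Gcn4 targets lie below 0. Centred on hybridisation controls, the stalk median is 0.05, and the target median is -0.13 with 3 targets called higher and 8 lower.

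Of the 9 genes for eIF2, eIF2B and eIF5, 2 fell and 0 rose in double deletion versus wild type, with a median of -0.19, where 12.2% of all genes fell. On other scales the list went both ways: 5 lower and 0 higher with median centring, 1 lower after quantile normalization, and 0 lower and 2 higher on the hybridisation control scale, with a median there of 0.20, so no direction of the list is given. None of the 9 was called lower when double deletion replicate 1 or wild type replicate 2 was left out, or among the 5 arrays of high 25S signal, and 1 when the other array of either group was. GCD7, for the beta subunit of eIF2B, fell by 0.58 (SE 0.13, limma adjusted p = 0.0196), with signals of 847 and 889 in the double deletion and 1268 and 1318 in the wild type. SUI2, for the eIF2 subunit that Gcn2 phosphorylates, fell by 0.32 (adjusted p = 0.0219) on the deposited scale, and its difference was 0.08 with hybridisation control centring. GCD7 lost its call without any one double deletion or wild type array, with an adjusted p of up to 0.109, and SUI2 without wild type replicate 2 (0.137) or without the first double deletion array. GCD7 was also lower with plus RPL12B than in the wild type (-0.57, adjusted p = 0.0446), a call lost without any one of 7 arrays, all but plus RPL12B replicate 1.

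All 5 genes of the P stalk, RPP0, RPP1A, RPP1B, RPP2A and RPP2B, whose proteins stand on the ribosome beside Rpl12 and have been tied to Gcn2 activation, fell on the deposited scale in the double deletion, where 12.2% of all genes fell, though their differences lay above 0 after centring on hybridisation controls. The median was -0.34, and the values ran from -0.37 for RPP0 to -0.32 for RPP2A (limma adjusted p = 0.0116 and 0.0361). The fall depends on the scale: 5 were called with median centring, but 0 with quantile normalization (median -0.07) and 0 on the hybridisation control scale, where the median was 0.05. The calls also depend on single arrays, but the median stayed below 0 without each array of the 2 groups. It was -0.29 and -0.41 without double deletion replicate 1 or 2, and -0.39 and -0.30 without wild type replicate 1 or 2. With plus RPL12A and with plus RPL12B, 0 of the 5 were called against the double deletion or the wild type, but 2 were lower in plus RPL12B versus wild type with median centring and 2 with the 25S split as a block.

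Of the 8 other Gcn2 regulators, 2 rose and 0 fell in the double deletion, with a median of 0.08; 2 of 8 is near the 20.4% of all genes that rose. The counts were 2 higher and 1 lower with median centring (median -0.12), 1 and 0 after quantile normalization, and 5 and 0 on the hybridisation control scale. HSP82, for a heat-inducible Hsp90 chaperone that Gcn2 needs to mature, rose by 1.94 (SE 0.55, limma adjusted p = 0.0347), with 2423 and 1324 in the double deletion against 722 and 303 in the wild type. Its signal was lower on replicate 2 in all 4 groups. TAP42, for a phosphatase partner in the Tor pathway, rose by 0.67 (adjusted p = 0.0142). The call of HSP82 was lost without any one double deletion or wild type array (up to 0.191), and that of TAP42 without double deletion replicate 2 or either wild type array (up to 0.0807).

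Of the 8 genes for Gcn4 turnover, 2 rose and 0 fell, with a median of 0.06, also near the 20.4% of all genes. The counts were 1 higher and 1 lower with median centring (median -0.14), 0 and 0 after quantile normalization, and 4 and 0 on the hybridisation control scale. SSN8, for the cyclin of the Srb10 kinase that also phosphorylates Gcn4, rose by 1.13 (limma adjusted p = 0.0193), and CDC53, for the cullin of the ubiquitin ligase that acts on Gcn4, rose by 0.40 (adjusted p = 0.0393). SSN8 lost its call without double deletion replicate 1 or either wild type array (up to 0.121), and CDC53 without any array except the plus RPL12B arrays (up to 0.209). Of the 9 other Pho85 cyclins, 2 rose and 1 fell, where 20.4% of all genes rose and 12.2% fell. The counts were 1 and 1 with median centring or quantile normalization and 3 and 0 on the hybridisation control scale. PHO80, for the cyclin of the phosphate response, rose by 0.72 (adjusted p = 0.0088) and PCL10, for a cyclin of glycogen control, by 0.56 (adjusted p = 0.016), while PCL9 fell by 0.48 (adjusted p = 0.046). Of these 3, PHO80 was called on all 4 scales. PHO80 lost its call without double deletion replicate 1 or either wild type array (up to 0.0668), and PCL10 and PCL9 without any one double deletion or wild type array (up to 0.0869 and 0.195).

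Coactivators that Gcn4 recruits were higher where called: 4 of 8 rose in the double deletion and 0 fell, with a median of 0.33, where 20.4% of all genes rose. MBF1, which bridges Gcn4 to the TATA-binding protein, rose by 0.76 (SE 0.09, limma adjusted p = 0.00339). Its signals were 4227 and 4251 with plus RPL12A, 4059 and 4717 with plus RPL12B, 4776 and 4602 in the double deletion, and 2897 and 2646 in the wild type. As with GCN20, all 6 arrays of 6EA1 were above both wild type arrays. MBF1 was called on all 4 scales and without each of the 8 arrays in turn. It also rose with plus RPL12A (0.61, adjusted p = 0.0209) and with plus RPL12B (0.66, adjusted p = 0.0131) against the wild type, calls that were lost without either wild type array (up to 0.143 and 0.104), for plus RPL12A also without any plus RPL12A or double deletion array, and for plus RPL12B also without plus RPL12B replicate 2.

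SNF2, for the motor of the SWI/SNF remodeller, rose by 0.60 (adjusted p = 0.00841), and SPT7 and GCN5, of the SAGA acetylase complex, by 0.53 and 0.45 (adjusted p = 0.0222 and 0.047). The count of coactivators that rose was 2 with median centring or quantile normalization and 6 with hybridisation control centring. It was 1 when double deletion replicate 1 or wild type replicate 2 was left out, and 2 when double deletion replicate 2 or wild type replicate 1 was. SNF2 was also higher with plus RPL12B than in the wild type (0.41, adjusted p = 0.0488), a call lost without any single array.

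Of 36 listed Gcn4 targets, 34 were tested, and 26 fell and 0 rose in double deletion versus wild type, with a median of -0.52. Of all genes, 12.2% fell and 20.4% rose. ARG1, of arginine synthesis, had signals of 1802 and 2160 in the double deletion and 4717 and 4628 in the wild type, and fell by 1.24 (SE 0.09, limma adjusted p = 0.000998). LYS20 (lysine synthesis) fell by 1.05, ARO2 (aromatic amino acids) by 0.94 and SNZ1 (vitamin B6 synthesis) by 0.89, and these 4 were called lower on all 4 scales and without each array in turn. The count was 31 with median centring, 15 after quantile normalization and 8, with 3 higher, after centring on hybridisation controls, where the median was -0.13 against 0.54 for all genes. It was 12 without double deletion replicate 1, 14 without wild type replicate 1 and 11 without wild type replicate 2. That such genes were lower on these arrays was known when the list was made, so the count is no independent evidence.

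Against the double deletion, the target median was 0.38 with plus RPL12A, where 5 were called higher and 0 lower, and 0.32 with plus RPL12B, where 2 were called higher and 0 lower. The medians of all genes were -0.09 and -0.06, and 0.221% and 0.11% of all genes were called higher. These comparisons use the same double deletion arrays, on which such genes were known to be lower when the list was made. The target medians and counts here are thus no independent evidence either. With plus RPL12A these 5 were SNO1, SNZ1, ARG1, ARO4 and ARO3, and with plus RPL12B the 2 were SNO1 and SNZ1; they are named after their values were seen. SNO1, the neighbour and partner of SNZ1 in vitamin B6 synthesis, gave 643 and 661 with plus RPL12A, 764 and 688 with plus RPL12B, and 223 and 207 in the double deletion, against 346 and 401 in the wild type. SNZ1 rose by 1.37 against the double deletion with plus RPL12A and by 1.37 with plus RPL12B (limma adjusted p = 0.00263 and 0.003) and was called without each array in turn. The count of 5 was 6 with median centring, 3 after quantile normalization and 2 after centring on hybridisation controls, and 1 with the 4 compared arrays fitted alone, a fit in which the count of 2 was 0. It was 1 without either plus RPL12A array or double deletion replicate 1, and 2 without either wild type array, and the count of 2 was 1 without double deletion replicate 2.

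Against the wild type, 2.22% of all genes were called higher and 1.75% lower with plus RPL12A, and 5.59% and 3.9% with plus RPL12B. The target median there was -0.12 with plus RPL12A (2 higher, 1 lower) and -0.22 with plus RPL12B (2 higher, 5 lower). The 2 higher were SNO1 and SNZ1 with both plasmids, and ARG1 was lower with both, by -0.52 with plus RPL12A and -0.76 with plus RPL12B (limma adjusted p = 0.0366 and 0.0116), again named after their values were seen. With hybridisation control centring the medians were 0.12 and 0.01, so no direction of the list is given here. The counts were 8 higher and 0 lower with plus RPL12A, and 6 and 2 with plus RPL12B, on that scale, 1 and 2, and 1 and 13, with median centring, and 0 and 0, and 2 and 1, after quantile normalization. With the 25S split as a block they were 2 and 3, and 2 and 12. Leaving out each array gave 0 to 2 higher and 0 to 2 lower with plus RPL12A, and 0 to 2 higher and 0 to 6 lower with plus RPL12B. Both counts were 0 for plus RPL12A without either of its arrays or either wild type array, and for plus RPL12B without its replicate 2 or either wild type array.

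Set beside each other by array, GCN4 mRNA, PCL5 and the other Gcn4 targets did not move by like amounts. The median deviation of the 34 targets from their own means was 0.03 and 0.13 with plus RPL12A, 0.003 and 0.02 with plus RPL12B, -0.33 and -0.24 in the double deletion, and 0.21 and 0.19 in the wild type. That of PCL5 was -0.04 and 0.46 with plus RPL12A, 0.07 and 0.67 with plus RPL12B, -0.92 and -0.32 in the double deletion, and -0.26 and 0.35 in the wild type. Both were lowest on the 2 double deletion arrays, but the targets were highest in the wild type and PCL5 on plus RPL12B replicate 2. GCN4 itself deviated by -0.13 to 0.11 over the 8 arrays.

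**Figure D5:**
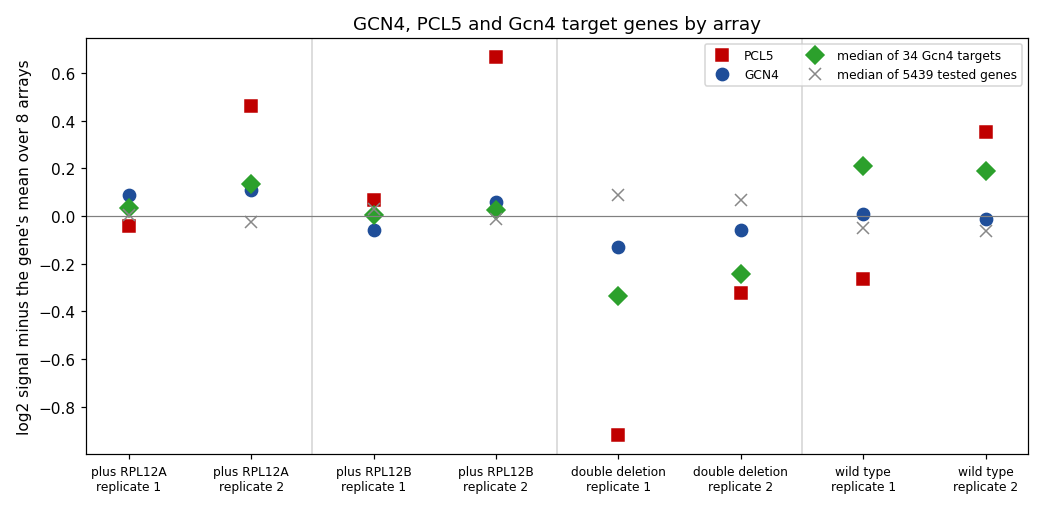
Log2 signal minus the mean over 8 arrays for PCL5, GCN4, the median of 34 Gcn4 targets and the median of all 5439 genes, by array. The double deletion arrays hold the lowest points of PCL5 and of the targets, while GCN4 stays between -0.13 and 0.11.

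The genes most like each member were taken by Pearson correlation of log2 signals over the 8 arrays, and all genes share these arrays and their scaling. They were PHD1 (r = 0.941) and DSK2 (0.915) for GCN1, YHR140W (0.987) and GRS2 (0.986) for GCN2, and SKI2 (0.966) and ALY2 (0.965) for GCN20. For YIH1 they were MDE1 (0.972) and CDC11 (0.97), for GCN4 APE3 (0.949) and GAS1 (0.947), and for PCL5 ECM8 (0.98) and ADE1 (0.979). No member was among these nearest genes of another member. An r above 0.9 was reached by 4 genes for GCN1, 117 for GCN2 and 84 for GCN20. For the other members it was reached by 19 (YIH1), 4 (GCN4) and 15 (PCL5).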

How the data were processed

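RNA from 8 cultures, 2 for each of 4 groups, was hybridised to 1 Affymetrix array each as biotinylated cRNA made from 10 ug of total RNA, per the labels' protocols. The intensity values deposited by the authors are linear, and MAS5 is the tool that the submitters' processing notes name, with no version given. Raw array files were not used. Intensities were log2 transformed. Of 10928 probe sets, 7244 had 1 gene symbol, 1 had several and 3683 had none, and 5498 stood for 5449 yeast genes; the brightest probe set on average stood for each of the 47 genes with more than 1. A gene was tested if 2 arrays or more exceeded the 95th percentile of the signals of S. pombe probe sets, which left 5439.

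The fit used R 4.3.3 and limma 3.58.1 (a mean per group over all 8 arrays, eBayes with trend, 4 residual and 3.23 prior degrees of freedom), was checked on simulated data, and gave 6 comparisons. With 50 genes changed at each size, the check called 22% of log2 changes of 0.5, 68% of 1 and 98% of 2. It made 14 false calls among the genes left unchanged. The check was read in double deletion versus wild type only. Its noise was drawn independently for each array, so it does not cover deviations that arrays share. The number of arrays limits the precision. Figures used Python 3.11.15 and matplotlib 3.10.9. The members and lists were chosen with earlier results of these data known. The text names all members, every called gene of a list of under 10 genes, and the 4 Gcn4 targets with the largest called difference between the double deletion and the wild type. The targets SNO1, ARO4 and ARO3 are also named, from comparisons of the plasmid groups and after their values were seen. The 2 genes most like each member were named by Pearson's r. Alternatives were 3 other scalings (median, quantile, and 18 hybridisation control probe sets), no filter, a pseudocount of 16, signals floored at background, a stricter filter at the 99th percentile, fits without trend or robust to outliers, the 4 compared arrays alone, the replicate number or the 25S split as a block, the mean of probe sets, and each array left out; the 5 arrays with a high 25S signal were added after seeing the data. Of the Gcn4 target list, 2 genes are not reported here.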

Additional observations from a re-analysis of the deposited data

How the results depend on the processing

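Of 792 member differences (6 members, 6 comparisons, 22 alternatives), 730 kept their sign and their side of the threshold, 42 changed sign and 9 lost a call. The threshold was passed anew by 14, 3 of them with a changed sign. Many alternatives could not change a member's sign, so the 730 is no measure of stability. Among them are the filters, the floor, the mean of probe sets, the trend settings and leaving out an array outside the comparison. In double deletion versus wild type, 1 member was called higher as deposited, 0 with median centring, 2 after quantile normalization (GCN20 and GCN4), 4 after centring on hybridisation controls (with GCN1 and GCN2), 0 without a trend, 0 to 1 when each array was left out, and 0 among the 5 arrays of high 25S signal; 1 was called lower with median centring (GCN4) and 1 with the replicate block (PCL5). Of all 5439 genes, 1109 were called higher in double deletion versus wild type as deposited and 2776 after centring on hybridisation controls. Counts on the other scales are given below. Where 0 members were called as deposited, hybridisation control centring gave 2 higher in plus RPL12A versus wild type and in plus RPL12B versus wild type (GCN20 and GCN4). On that scale 724 and 914 of all genes were called higher in these 2 comparisons. Quantile normalization gave 1 member in the second (GCN4).

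Signs turned mostly near 0. In double deletion versus wild type they turned for GCN1 (0.035 quantile, 0.35 hybridisation controls), GCN4 (0.20 and 0.30), and, with hybridisation controls, YIH1 (0.12), SUI2 (0.077), RPP0 (0.021), RPP1A (0.039), RPP2B (0.054), RPP1B (0.060) and RPP2A (0.071). In plus RPL12A versus double deletion they turned for GCN1 (0.10) and GCN20 (0.10) with median centring and YIH1 (-0.078) with hybridisation controls; leaving out single arrays gave GCN1 -0.044 to 0.0061, GCN20 -0.082 to 0.033 and YIH1 -0.012 to 0.15. In plus RPL12B versus double deletion they turned for GCN1 (0.0055) and GCN20 (0.00098) with median centring, GCN4 (-0.0034 quantile, -0.072 hybridisation controls) and YIH1 (-0.13 hybridisation controls, -0.21 to 0.27 leaving out arrays). In plus RPL12A versus wild type they turned for GCN2 (-0.0098 median, -0.020 quantile, -0.061 to 0.20 leaving out arrays), GCN1 (0.18) and YIH1 (0.041) with hybridisation controls, and PCL5 (-0.14 to 0.47 leaving out arrays). In plus RPL12B versus wild type they turned for GCN4 (-0.11 median, -0.058 to 0.061 leaving out arrays, -0.069 on the 5 arrays), GCN1 (0.10 hybridisation controls) and YIH1 (0.062 on the 5 arrays). In plus RPL12A versus plus RPL12B they turned when arrays were left out for YIH1 (-0.20 to 0.28), PCL5 (-0.46 to 0.14) and GCN2 (-0.22 to 0.042), and on the 5 arrays for YIH1 (-0.13), GCN2 (0.049) and GCN20 (-0.016). The cause was not tested.

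Replicate numbers are shared across groups in the labels. Deviations of same-numbered arrays correlated across genes at 0.05 to 0.79 between groups, with only 2 pairs for each. The labels do not say what the number marks, so whether it stands for a batch is not known. With the replicate number as a block, PCL5 was called lower in double deletion versus wild type (adjusted p = 0.00227) and higher in plus RPL12A and plus RPL12B versus double deletion (0.0106 and 0.00611) and in plus RPL12B versus wild type (0.0266), 1 member each. In those comparisons the block left 68 genes higher and 11 lower, and 16 and 1, against the double deletion, where the main counts were 12 and 0, and 6 and 0. In double deletion versus wild type, 65 to 1206 of all genes were called lower over all alternatives, this block among them, where the main count was 661. The block also gave 12 higher Gcn4 targets in plus RPL12A versus double deletion (5 without it), 3 higher and 14 lower ones in plus RPL12B versus wild type (2 and 5), and stalk counts of 3 higher in the first of these comparisons and 5 lower in the second (0 and 0).

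The count of all genes in double deletion versus wild type (1109 higher, 661 lower) was 548 and 1206 with median centring, 393 and 427 after quantile normalization, 2776 and 65 after centring on hybridisation controls, 611 and 199 on the 5 arrays, and as low as 125 and 91 when an array was left out. In plus RPL12A versus wild type (121 and 95) it was 724 and 27 after centring on hybridisation controls, 406 and 313 with the replicate block and 435 and 293 with the 25S split as a block, and in plus RPL12B versus wild type (304 and 212) it was 914 and 32, 695 and 524, and 735 and 484; leaving out an array gave as few as 12 and 0, and 13 and 1. Over all alternatives 4 to 68 genes were called higher in plus RPL12A versus double deletion and 0 to 16 in plus RPL12B versus double deletion.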
